A study of Mus musculus with 6 samples.

Results

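Trp53, which encodes the transcription factor p53, and 30 of its known target genes or close partners were followed through 6 mouse mammary glands. The 31 genes were chosen by name, and each was represented by the probe set that carries its symbol alone and has the highest mean signal. On the array, 28 of the 31 genes had such a probe set, out of 18193 genes in all, and 23 of the 28 were bright enough to enter the tests. Trp53, Bax and Gdf15 had no probe set with that symbol alone and were not analysed here, so the level of the p53 transcript itself is not given. Pmaip1, Tnfrsf10b, Plk3, Eda2r and Pidd1 lay below the brightness filter, and their signals are described without a place in the counts of tested genes.

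The series asked which genes depend on Brca1, the breast cancer susceptibility gene, at 3 stages of the mammary cycle, each with 1 mutant and 1 control female, 1 gland sample per array. The virgin mice were 6 months old, with a Brca1 D11/D11;p53+/- mutant and a D+/+;p53+/- control. The mice at lactation day 1 were 2 months old and carried those same genotypes. The mice at pregnancy day 16.5 were 5 months old, and here the mutant was Brca1 co/co with MMTV-Cre and the control +/co with MMTV-Cre. The virgin and lactating mutants and controls thus share the loss of 1 p53 copy by label, and both pregnant mice share the MMTV-Cre transgene and at least 1 co allele. The sample labels do not mark the pregnant pair as p53+/-, whereas the description of the series gives p53+/- for all pairs, and the sample labels were followed. MMTV-Cre acts mainly in the mammary epithelium, so other cells of the pregnant mutant gland may keep their co alleles, which was not measured. The labels do not spell out what the co and D11 alleles remove. The strain was a mix of 129, FVB and Black Swiss.

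The p53 protein is held low in most cells by Mdm2, a ubiquitin ligase that is itself a p53 target. After DNA damage or other stress p53 is stabilised, binds pairs of half-sites in the DNA, and switches on genes that stop the cell cycle, start cell death, repair DNA or adjust metabolism. In the mammary epithelium, loss of Brca1 leaves DNA breaks unrepaired and is known to engage p53, and removal of p53 copies lets Brca1-deficient cells survive.

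Promoters were searched for such pairs in a window from 250 bases before to 50 bases after each start listed by RefSeq on the GRCm38.p6 mouse assembly. The search used the p53 consensus half-site, by name, on both strands, with at most 1 mismatch in each half-site of 10 bases and a spacer of 0 to 13 bases, and 1 half-site could belong to more than 1 pair. Of 32851 promoters, 2208 (6.72%) held a pair, and 20 of the 28 genes had 26 promoters in the table, of which 3 held a pair. The promoters of Ccng1 and Polk are shown because both genes were called in a comparison of stages. The Cdkn1a promoter is shown in addition, chosen after its values were seen, because it had the widest range of mutant to control ratios among the tested genes, 1 end of which rests on a dim signal. Capitals mark the half-sites found, and each sequence runs 5′ to 3′ along the gene's strand.
Ccng1, chr11:40755237-40755536, minus strand: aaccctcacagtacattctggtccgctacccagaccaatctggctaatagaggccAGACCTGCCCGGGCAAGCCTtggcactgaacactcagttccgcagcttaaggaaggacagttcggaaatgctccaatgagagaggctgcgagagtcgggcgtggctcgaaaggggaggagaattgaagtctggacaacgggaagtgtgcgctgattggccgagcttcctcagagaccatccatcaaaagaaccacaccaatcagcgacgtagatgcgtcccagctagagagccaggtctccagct
Polk, chr13:96519138-96519437, minus strand, 1 of 2 listed starts: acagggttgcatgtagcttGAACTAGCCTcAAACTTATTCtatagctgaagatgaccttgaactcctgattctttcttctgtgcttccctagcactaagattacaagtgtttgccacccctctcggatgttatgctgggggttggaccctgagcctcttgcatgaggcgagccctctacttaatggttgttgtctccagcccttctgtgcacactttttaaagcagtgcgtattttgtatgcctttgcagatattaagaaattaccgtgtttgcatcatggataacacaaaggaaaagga
Cdkn1a, chr17:29090729-29091028, plus strand, 1 of 2 listed starts: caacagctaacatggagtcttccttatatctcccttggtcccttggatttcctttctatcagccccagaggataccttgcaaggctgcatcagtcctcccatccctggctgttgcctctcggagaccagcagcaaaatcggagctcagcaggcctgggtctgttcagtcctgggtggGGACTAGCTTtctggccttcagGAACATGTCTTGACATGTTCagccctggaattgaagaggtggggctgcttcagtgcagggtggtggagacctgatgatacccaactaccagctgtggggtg
In Ccng1 the half-sites touch, with their first bases 195 and 185 bases before the start. In the Cdkn1a window 3 half-sites form 2 pairs, with spacers of 12 and 0 bases. A match of letters is a description of the window, and no binding was measured.

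The arrays differed in ways that touch every gene. Their MAS5 signals were scaled to 1 trimmed mean of 500, but the median signal was 119.9 to 157.8 on the virgin and pregnant arrays and 211.2 and 230.8 on the lactating ones. The ratio of 3′ to 5′ actin signal, a sign of RNA quality that rises as RNA breaks, was 1.37 and 1.43 in the pregnant glands, 2.04 and 2.74 in the virgin glands and 1.58 and 1.91 in the lactating glands. Gapdh, measured likewise, had its highest 3′ to 5′ ratio on the array of the virgin control, at 3.50, and lay between 0.732 and 1.52 on the other 5. The sample titles of the lactating arrays open with another date than those of the other 4, read here as the array date. Luminal and milk genes marked all glands as mammary, with Krt8 signals of 6145.7 to 15971.3 and Csn2 signals of 30621.2 to 44423.1. The 20 Y-linked probe sets, which have no transcript in female mice, had a median signal of 33.6, a 90th percentile of 184.6 and a highest value of 483.5 over 120 values, which shows how far a dark probe set can read. Lactating signals of Fas, Sesn1 and Apaf1, and virgin and pregnant signals of Bbc3, lie between that 90th percentile and that highest value. Brca1 itself read 137 (control) and 486.5 (mutant) in virgin glands, 158.7 and 288 at pregnancy, and 237.6 and 156.7 at lactation. The labels and tables used here do not place its probe set against the altered stretch of Brca1, so these signals check none of the genotypes.

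**Figure D1:**
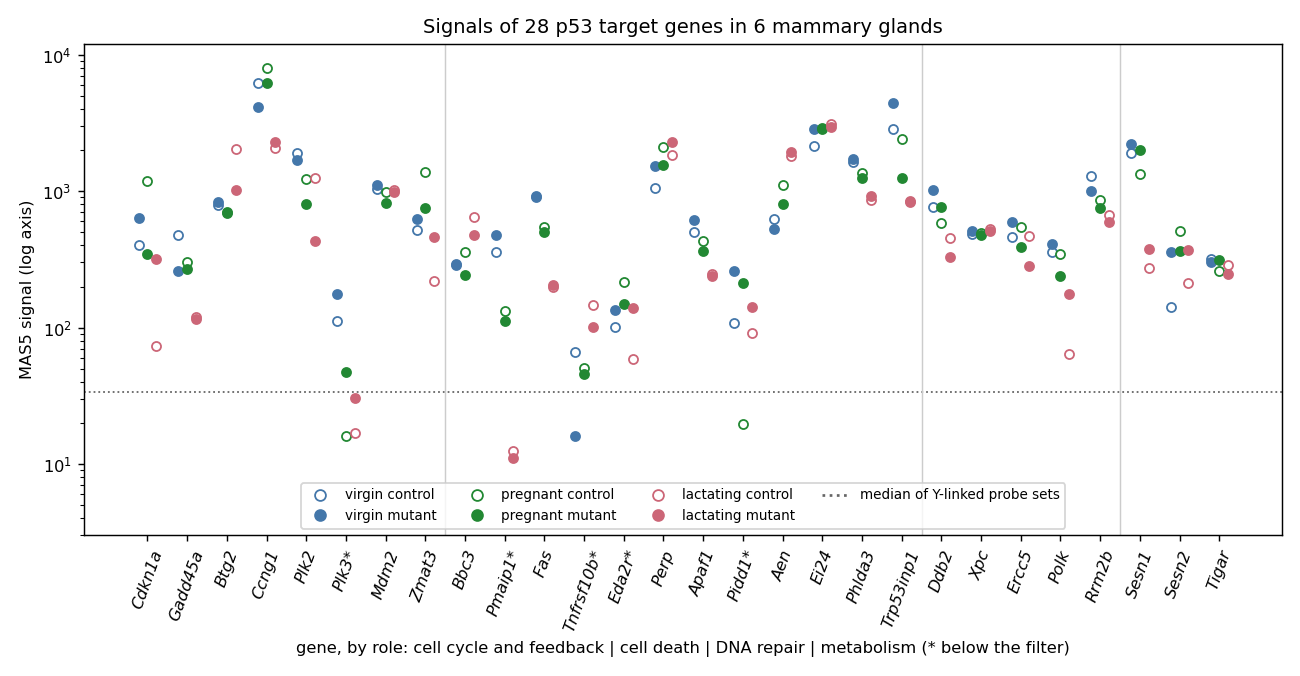
MAS5 signal (vertical log axis) of the 28 p53 target genes, grouped along the horizontal axis by role, with 1 point per gland. Open circles are controls and filled circles mutants, blue is virgin, green pregnant and red lactating, the dotted line is the median of 33.6 of the Y-linked probe sets, and * marks the 5 genes below the filter. Sesn1, Fas and Pmaip1 sit lowest in the lactating glands, Aen sits highest there, and the Xpc points lie on top of each other.

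Across the stages, p53 target genes were lower in the lactating than in the virgin glands more often than higher. Of the 23 genes tested, 11 were lower, 3 were higher and 9 were not called by limma at an adjusted p under 0.05. Sesn1 fell the most, followed by Trp53inp1 and Fas, and Aen, Bbc3 and Btg2 rose. Over all 11569 genes tested, 28.2% were lower and 23.8% higher in this comparison, and the median log2 ratio was -0.10, beside -0.81 for the 23 genes. All ratios are of signal plus a pseudocount of 52.1, so they understate the change of dim genes. The lactating and virgin mice differ in age and array date as well as in stage, and these cannot be told apart.

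The scaling of the arrays bears on this split. With each array centred on its median, the ratio of the median gene moved from -0.10 to -0.69, and the higher share of all calls went from 45.76% to 18.72%. Under that centring limma called 7046 of the 11569 genes, beside 6020 with the deposited scaling, so calls rose over all genes too. Of the 23 genes 16 were then lower and Aen alone was higher (log2 ratio 1.04), while Bbc3 (0.24) and Btg2 (0.21) were not called. With quantile normalization the counts were again 11 lower and 3 higher, with Perp called higher (0.83) and Bbc3 (0.63) not called. Over all genes it gave 5946 calls, 42.55% of them higher.

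Of the cell cycle and feedback genes, 7 were tested, and between lactating and virgin glands 3 were lower, 1 was higher and 3 were not called. Ccng1, which encodes cyclin G1, a partner of a phosphatase that acts on Mdm2, had signals of 6212.3 (control) and 4162.9 (mutant) in virgin glands, 7987.5 and 6224 at pregnancy, and 2055.5 and 2284.5 at lactation. Both lactating glands lay below the other 4. Ccng1 was 2.32-fold lower in lactating than in virgin glands (log2 ratio -1.21 ± 0.22 SE, adjusted p = 0.00365) and 3.20-fold lower than in pregnant glands (-1.68 ± 0.22, adjusted p = 0.00375). Of its 3 probe sets, 2 pointed that way against virgin glands and 3 of 3 did against pregnant glands. The third probe set had a log2 ratio of 0.73 against virgin glands.

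Plk2 encodes a Polo-like kinase of the stress response. It read 1903.9 (control) and 1694.6 (mutant) in virgin glands, 1230.3 and 803.1 at pregnancy, and 1258.4 and 429.4 at lactation. The virgin glands were highest, and the lactating control was close to the pregnant control. Plk2 fell by 1.22 ± 0.30 on the log2 scale from virgin to lactating glands (adjusted p = 0.0122), and a second, dimmer probe set of 26.2 to 189.4 had a ratio of 1.28 the other way. Gadd45a, whose product binds the replication clamp and slows growth, read 473.2 (control) and 259.2 (mutant) in virgin glands, 303.6 and 267.3 at pregnancy, and 119.9 and 116.1 at lactation. Both lactating glands lay below the rest, and below the 90th percentile of 184.6 of the Y-linked probe sets. The Gadd45a ratio was -1.25 ± 0.30 against virgin (adjusted p = 0.0107) and -0.99 ± 0.30 against pregnant glands (adjusted p = 0.0418). Btg2, which restrains growth and is also an immediate early gene, read 793.1 (control) and 835.9 (mutant) in virgin glands, 707.1 and 686.8 at pregnancy, and 2053.1 and 1019.3 at lactation. Both lactating glands were above the other 4, the control far above the mutant. Btg2 rose by 0.79 ± 0.28 against virgin (adjusted p = 0.0478) and by 1.00 ± 0.28 against pregnant glands (adjusted p = 0.033), and both of its probe sets agreed in sign.

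Cdkn1a encodes p21, the inhibitor of cyclin-dependent kinases through which p53 arrests the cell cycle. Its signals were 399.9 (control) and 641.2 (mutant) in virgin glands, 1180.4 and 347 at pregnancy, and 73.3 and 319.6 at lactation. Mutant and control lay far apart at pregnancy and at lactation, in opposite directions, and the stage ratios were not called: -1.38 ± 0.64 for lactating against virgin (adjusted p = 0.107) and -1.70 ± 0.64 for lactating against pregnant glands (adjusted p = 0.0787). Zmat3, a zinc finger gene whose product binds RNA, read 522.1 (control) and 626.8 (mutant) in virgin glands, 1393.2 and 758 at pregnancy, and 219.8 and 462.6 at lactation. The lactating glands were lowest and the pregnant control highest, as for Cdkn1a. Zmat3 fell by 1.53 ± 0.38 from pregnant to lactating glands (adjusted p = 0.0222), while its ratio of -0.74 ± 0.38 against virgin glands was not called (adjusted p = 0.14). Mdm2 kept within 817.9 and 1115.3 on all 6 arrays, a 1.36-fold range. Its lactating to virgin ratio was -0.10 ± 0.20 (adjusted p = 0.708), yet its 2 dimmer probe sets had ratios of 0.97 and 2.16. Plk3, below the filter, read 112.2 and 176.7 at the virgin stage and 16 to 47.2 in the other 4 glands, near the level of the Y-linked probe sets.

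Of the cell death genes, 8 were tested, and between lactating and virgin glands 4 were lower, 2 were higher and 2 were not called. Fas, the death receptor, read 926.7 (control) and 903.1 (mutant) in virgin glands, 542.7 and 500.6 at pregnancy, and 198.5 and 205 at lactation. The 3 stages did not overlap, and mutant and control of a stage were close. Fas was 3.81-fold lower in lactating than in virgin glands (-1.93 ± 0.21, adjusted p = 0.000504) and 2.26-fold lower than in pregnant glands (-1.18 ± 0.21, adjusted p = 0.0084). Trp53inp1, a nuclear protein that promotes p53 activity and autophagy, read 2837.2 (control) and 4420.5 (mutant) in virgin glands, 2395.3 and 1248.3 at pregnancy, and 843.6 and 827.6 at lactation. The lactating glands were again lowest, 4.05-fold below virgin (-2.02 ± 0.34, adjusted p = 0.00237). A second probe set of 31.8 to 458.3 went the other way, with a ratio of 1.71.

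Apaf1, the scaffold of the apoptosome, read 499.4 (control) and 612.8 (mutant) in virgin glands, 434.4 and 365.2 at pregnancy, and 246.1 and 237.3 at lactation. It fell by 1.04 ± 0.24 from virgin to lactating glands (adjusted p = 0.00918), and its dimmer probe set showed a ratio of 0.0043. Phlda3, a p53-induced inhibitor of Akt, read 1626.7 (control) and 1719.6 (mutant) in virgin glands, 1363.4 and 1243.7 at pregnancy, and 865.9 and 917.6 at lactation. The stages followed each other without overlap, and Phlda3 fell by 0.87 ± 0.19 from virgin to lactating glands (adjusted p = 0.00743). Pmaip1, which encodes the BH3-only protein Noxa and lay below the filter, read 360.4 (control) and 474.1 (mutant) in virgin glands, 132.7 and 110.8 at pregnancy, and 12.4 and 11.1 at lactation, where it was below the median of the Y-linked probe sets. In a fit without the filter its lactating to virgin ratio was -2.87 ± 0.33 (adjusted p = 0.000977), and its low mean over the 6 arrays is what kept it out of the counts. In that fit Plk3 (-1.36 ± 0.29, adjusted p = 0.00911) was lower too, and Tnfrsf10b (0.96 ± 0.32, adjusted p = 0.0462) was higher, and Plk3 was also lower in pregnant than in virgin glands (-1.24 ± 0.29, adjusted p = 0.0476). Eda2r and Pidd1 were not called.

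Aen and Bbc3 went the other way. Aen, a nuclease that digests DNA in dying cells, read 624.1 (control) and 524.9 (mutant) in virgin glands, 1111.3 and 809.8 at pregnancy, and 1815.6 and 1936.6 at lactation. The stages did not overlap, with pregnant glands in the middle. Aen was 3.09-fold higher in lactating than in virgin glands (1.63 ± 0.21, adjusted p = 0.000914) and rose by 0.94 ± 0.21 against pregnant glands (adjusted p = 0.0161). All 4 of its probe sets had higher lactating than virgin signals, and 3 of 4 higher lactating than pregnant signals. Against pregnant glands the ratio was 0.60 with the mean of probe sets and was not called (adjusted p = 0.0731). Bbc3, the BH3-only protein Puma, read 288 (control) and 291.5 (mutant) in virgin glands, 357.4 and 242.2 at pregnancy, and 649.4 and 475.9 at lactation. Both lactating glands exceeded the other 4, with ratios of 0.83 ± 0.25 against virgin (adjusted p = 0.0244) and 0.81 ± 0.25 against pregnant glands (adjusted p = 0.0416). Perp, a desmosomal membrane protein needed for p53-driven death, read 1059.4 to 2304.7 with a ratio of 0.66 ± 0.26 against virgin glands (adjusted p = 0.066). Ei24, a protein of the endoplasmic reticulum, read 2161.3 to 3088.9 and was not called either (0.28 ± 0.20, adjusted p = 0.274). The death receptor genes Tnfrsf10b (16.1 to 146.8) and Eda2r (59 to 214.3) and the caspase scaffold gene Pidd1 (19.5 to 261.8) overlapped the range of the Y-linked probe sets.

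Of the 5 DNA repair genes, 3 were lower in lactating than in virgin glands and 2 were not called. Polk, a polymerase that copies past DNA lesions, read 356.5 (control) and 406.8 (mutant) in virgin glands, 346.5 and 238.1 at pregnancy, and 63.9 and 176.4 at lactation. Both lactating glands lay below the rest, in the range of the Y-linked probe sets, and the ratio to virgin glands was -1.41 ± 0.37 (adjusted p = 0.0156). Its other probe set, of 101.1 to 312.9, had a ratio of 0.67. Ddb2, which recognises ultraviolet damage, read 771.9 (control) and 1022.8 (mutant) in virgin glands, 581.6 and 768.4 at pregnancy, and 457.3 and 327.2 at lactation. The stages did not overlap, Ddb2 fell by 1.10 ± 0.26 from virgin to lactating glands (adjusted p = 0.0103), and both probe sets agreed in sign. Rrm2b, the p53-induced subunit of ribonucleotide reductase, read 1298.6 (control) and 1007.5 (mutant) in virgin glands and 671.5 and 589.6 at lactation, with the pregnant glands between them at 859.7 and 750.3. Its ratio was -0.81 ± 0.20 (adjusted p = 0.0107), with 2 of 4 probe sets on that side. Ercc5, an endonuclease of nucleotide excision repair, had a ratio of -0.46 ± 0.29 (adjusted p = 0.214). Xpc, the damage sensor of the same pathway, was the flattest of the 28 genes, at 474.4 to 524.4 on the 6 arrays.

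Of the 3 metabolic genes, Sesn1 moved between stages and the other two were not called. Sesn1, a sestrin that restrains mTORC1 signalling, read 1912 (control) and 2222.6 (mutant) in virgin glands, 1329.8 and 2013.4 at pregnancy, and 274.1 and 375.1 at lactation. The lactating glands were far below the other 4, which overlapped. Sesn1 was 5.66-fold lower in lactating than in virgin glands (-2.50 ± 0.20, adjusted p = 0.000183) and 4.53-fold lower than in pregnant glands (-2.18 ± 0.20, adjusted p = 0.00137). All 4 probe sets were lower in lactating than in virgin glands, with ratios of -0.20 to -2.57, and 3 of 4 were lower than in pregnant glands. Against pregnant glands the ratio stayed called at -1.30 without cross-hybridising probe sets, and it stayed called, at a smaller size, with the mean of probe sets. Its paralog Sesn2, also induced by nutrient stress, read 140.4 (control) and 360.4 (mutant) in virgin glands, 507.7 and 366.8 at pregnancy, and 214 and 368.7 at lactation, and its ratio of 0.25 ± 0.37 was not called (adjusted p = 0.599). Tigar, a phosphatase that slows glycolysis, kept within 248.6 and 319.8.

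**Figure D2:**
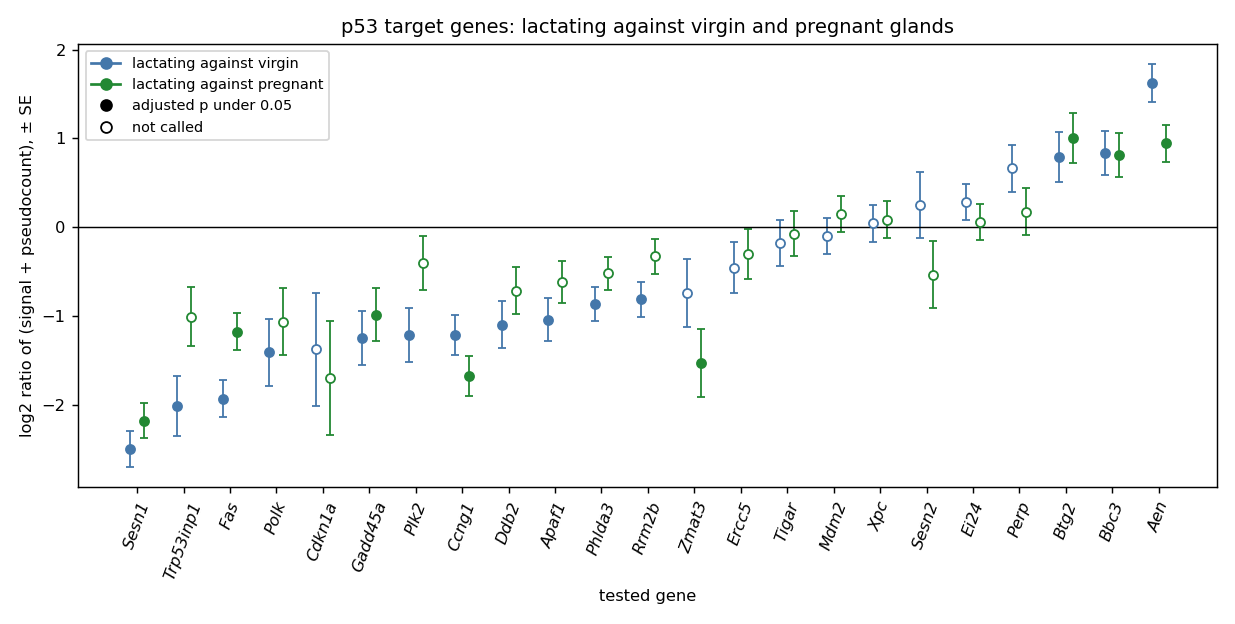
Log2 ratio of signal plus pseudocount (vertical axis, ± SE from limma) of the 23 tested genes, lactating against virgin in blue and against pregnant glands in green, which share the lactating arrays. Filled points passed an adjusted p of 0.05: Sesn1 lies lowest at -2.50 and -2.18, and Aen highest against virgin glands at 1.63.

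Many of these calls did not hold when an array was left out. Leaving out an array also lowers the residual degrees of freedom below 2, so a call can be lost with its ratio unchanged. Which of these cost each call was not tested. With each array left out in turn, 5 of the 14 lactating against virgin calls held every time: Sesn1, Fas, Trp53inp1, Ccng1 and Aen. Without the virgin mutant, Apaf1 (-0.84), Ddb2 (-0.89), Phlda3 (-0.82), Plk2 (-0.79) and Polk (-1.46) were no longer called. Without the virgin control, the array with the highest 3′ to 5′ ratios, Bbc3 (0.60), Btg2 (0.50), Gadd45a (-0.92), Polk (-1.37) and Rrm2b (-0.73) were lost. Without the lactating mutant, Ddb2 (-0.70) and Plk2 (-0.68) were lost, and without the lactating control Bbc3 (0.74), Btg2 (0.30) and Polk (-0.85). Btg2 also dropped out at 0.79 without either pregnant array. Each such fit rests on 1 array at that stage, assumed to vary like the others. With the mean over probe sets in place of the brightest one, Apaf1 (-0.52), Ccng1 (-0.49), Polk (-0.37), Rrm2b (-0.04) and Trp53inp1 (-0.16) were not called and Plk2 stood at 0.03. Of the 14 genes called, 4 had a single probe set, 4 had several of the same sign and 6 had at least 1 of opposite sign.

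Against the pregnant glands, which carry other Brca1 alleles and are not labelled p53+/-, the lactating glands were lower in 5 of the 23 genes and higher in 3. Sesn1, Ccng1, Zmat3, Fas and Gadd45a were lower, and Btg2, Aen and Bbc3 higher. Of all genes tested, 16.8% were lower and 15.1% higher, and the median ratio was -0.52 for the 23 genes beside -0.03 for all. With median centring the calls over all genes went from 3697 to 4600, and their higher share from 47.34% to 17.04%. Of the 23 genes 13 were then lower and 0 higher. Sesn1 and Ccng1 were called whichever array was left out. Without the pregnant control Aen (1.13), Bbc3 (0.95), Btg2 (0.80), Fas (-1.12), Gadd45a (-1.11) and Zmat3 (-0.82) were lost. Without the pregnant mutant Aen (0.76), Bbc3 (0.67), Btg2 (1.21), Fas (-1.23) and Gadd45a (-0.87) were lost. Without the lactating mutant Aen (0.73) and Bbc3 (0.90) were lost, and without the lactating control Bbc3 (0.72), Btg2 (0.51), Gadd45a (-0.78) and Zmat3 (-0.92). Gadd45a was also lost at -0.99 without either virgin array. Stage, alleles, p53 label, age and array date cannot be told apart here.

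Between pregnant and virgin glands, 0 of the 23 genes were called, beside 6.38% of all genes higher and 7.98% lower. At an unadjusted p under 0.05 limma gave 5 of the 23, of which Aen was higher and Fas, Trp53inp1, Plk2 and Rrm2b lower. That is 21.7% of the 23, beside 31.2% of all genes tested at the same threshold. Fas came nearest to a call, with a ratio of -0.75 ± 0.21 (adjusted p = 0.0551), followed by Aen at 0.68 ± 0.21 (adjusted p = 0.0713). The median ratio of the 23 genes was -0.21, beside -0.06 for all. Median centring called 1851 of the 11569 genes, beside 1661 with the deposited scaling, and moved the higher share of all calls from 44.43% to 26.74%. Of the 23 genes it called 3 lower. Without the lactating pair, or without either of its arrays, 4 were called. Without the pregnant mutant 2 were called, and without the pregnant control 1. In the fit without the filter, Pmaip1 (-1.43 ± 0.33, adjusted p = 0.0452) and Plk3 (-1.24 ± 0.29, adjusted p = 0.0476) were lower in pregnant glands.

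A further comparison set the pregnant pair against the 4 glands labelled p53+/-, virgin and lactating stages weighted equally. It shares its arrays with the comparisons above, and the p53 label, the Brca1 alleles and the stage cannot be told apart in it. Ccng1 was higher in the pregnant glands (1.07 ± 0.19, adjusted p = 0.0342), with 7987.5 and 6224 against 2055.5 to 6212.3, and its 3 probe sets had the same sign. Sesn1 was also called higher (0.93 ± 0.17, adjusted p = 0.0358). However, its pregnant mean fell between the virgin and lactating means, and its pregnant signals (1329.8 and 2013.4) overlapped the virgin ones (1912 and 2222.6). With probe sets open to cross-hybridisation set aside the Sesn1 ratio was 0.01. No gene of the 23 was called lower. At an unadjusted p under 0.05 limma gave 3 higher, Ccng1, Sesn1 and Zmat3 (1.16 ± 0.33, adjusted p = 0.0918), and 1 lower, Btg2 (-0.61 ± 0.25, adjusted p = 0.179), beside 11.8% and 13.3% of all genes. Of all genes tested 2.07% were higher and 1.47% lower. Median centring moved the number of all calls from 410 to 401 and their higher share from 58.54% to 75.56%, with 2 of the 23 again higher. Both calls were lost without the pregnant control (Ccng1 1.00, Sesn1 1.07), without the pregnant mutant (1.15 and 0.79) and without the virgin mutant (0.96 and 0.86). Without the virgin control Sesn1 (1.00) was lost, and without the lactating mutant 5 genes were called.

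Brca1 mutant and control glands were compared over the 3 pairs, with stage as a block. No p53 target gene was called, and neither was any of the 11569 genes (0% called), with a lowest adjusted p of 0.943 in both cases. At an unadjusted p under 0.05 limma gave 544 genes in all and 2 of the 23: Plk2, at -0.73 ± 0.25, and Sesn1, at 0.39 ± 0.16. Of their probe sets, 1 of 2 for Plk2 and 3 of 4 for Sesn1 had that sign. Gadd45a (-0.31 ± 0.25), Sesn1, Plk2 and Rrm2b (-0.24 ± 0.16, with 3 of 4 probe sets of that sign) were the 4 genes of 23 whose mutant to control ratio had the same sign in all 3 pairs, beside 25.7% of all genes. In Gadd45a that rested on a lactating ratio of -0.03, which became 0.05 with quantile normalization and 0.07 with median centring. The median ratio of the 23 genes was -0.0094, beside 0.03 for all genes.

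Within the pairs, each of 1 mutant and 1 control mouse and so without a test, the p53 target genes went different ways. In the pregnant pair 20 of the 23 genes were lower in the mutant, beside 47.5% of all genes, with a median log2 ratio of -0.25 beside 0.02 for all. In the virgin pair 7 were lower, beside 47.8%, with a median of 0.11. In the lactating pair 13 were lower, beside 45.9%, with a median of -0.03. With median centring the virgin count became 12 and the lactating count 7, while the pregnant count was 19 or 20 under each alternative.

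Cdkn1a varied most between the pairs. In the pregnant mutant it stood at 347 against 1180.4 in the control, a log2 ratio of -1.63, and it was the only gene of the 23 at least 2-fold lower there, with 0 at least 2-fold higher, beside 0.899% of all genes lower and 1.1% higher. In the virgin pair its ratio was 0.62, and in the lactating pair 319.6 against 73.3 gave 1.57. The 73.3 of the lactating control lies within the range of the Y-linked probe sets, so this ratio rests on a signal not shown to be above background. A second Cdkn1a probe set read 104 (control) and 307.5 (mutant) in virgin glands, 1029.8 and 321.4 at pregnancy, and 14.5 and 21.5 at lactation. Its ratios were 1.20 in virgin glands and -1.53 at pregnancy, with the signs of the first probe set. At lactation both of its signals lay below the median of the Y-linked probe sets, so that pair gives no second reading. Over the 3 pairs the ratio of Cdkn1a was 0.19 ± 0.52 (adjusted p = 0.985). It turned to -0.50 without either lactating array and to -0.03 without either virgin array, and was 1.09 without either pregnant one.

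The other ratios of at least 2-fold were few. In the virgin pair Sesn2 was higher in the mutant, 360.4 against 140.4 (1.10), and 0 genes were at least 2-fold lower, beside 1.42% of all genes higher and 1.25% lower. A second Sesn2 probe set had 0.25 there. In the lactating pair Cdkn1a was higher and Plk2 lower, with Plk2 at 429.4 in the mutant against 1258.4 in the control (-1.45), beside 3.58% and 2.7% of all genes. The other Plk2 probe set had -0.26 in that pair. Among the lower genes Btg2 was next, at 1019.3 against 2053.1 (-0.97), and its second probe set gave -1.05. Pidd1, below the filter, read 210.8 in the pregnant mutant against 19.5 in the control.

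Some genes took opposite signs in the pregnant pair and in the 2 pairs labelled p53+/-. In either direction these were 7 of the 23 tested (30.4%), near the 25.4% of all genes tested. Cdkn1a, Sesn2, Phlda3, Zmat3, Perp and Polk were lower in the pregnant mutant and higher in the virgin and the lactating mutant than in their controls, 6 of the 23 tested, beside 13.6% of all genes. Ratios of Zmat3 were -0.84 at pregnancy, 0.24 at the virgin stage and 0.92 at lactation, and those of Perp were -0.45, 0.52 and 0.33. Polk had -0.46, 0.17 and 0.98, but its second probe set was higher in the mutant of every pair. For Sesn2 the second probe set was lower in the lactating mutant, at -0.66. The ratios of Phlda3 were within 0.13 of 0, and its virgin ratio turned to -0.08 with median centring.

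**Figure D3:**
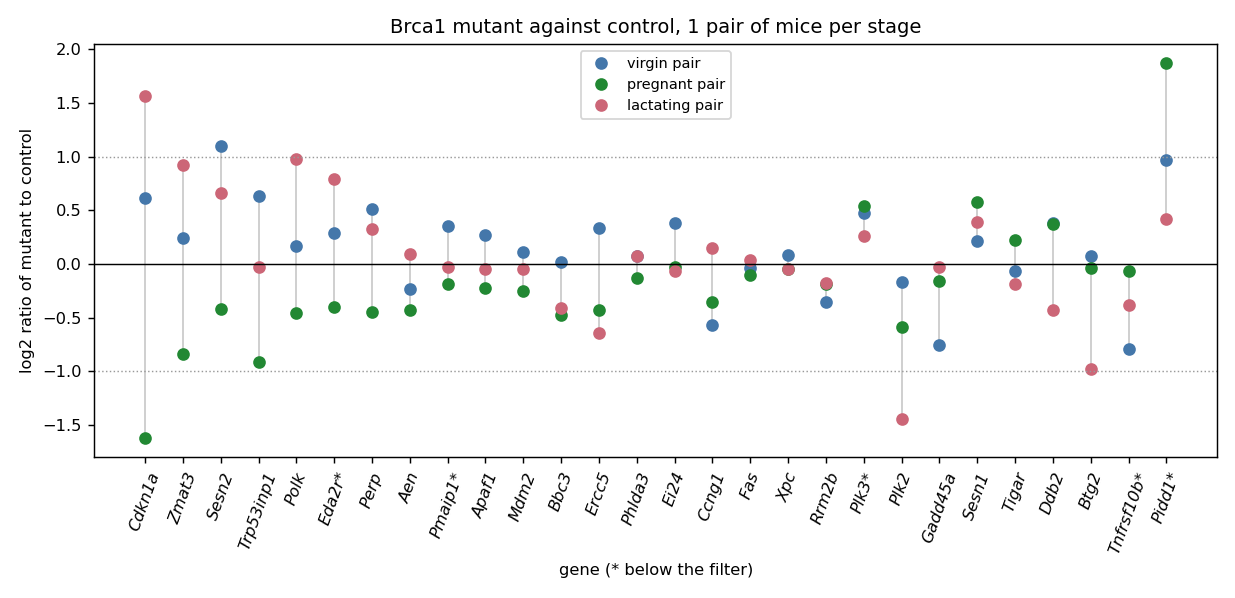
Log2 ratio of mutant to control signal plus pseudocount (vertical axis) for the 28 genes, 1 point per pair of mice, virgin in blue, pregnant in green and lactating in red, and * for genes below the filter. Dotted lines mark 2-fold, and Cdkn1a spans the widest range of the tested genes, from -1.63 in the pregnant to 1.57 in the lactating pair, where the control signal of 73.3 is in the range of dark probe sets.

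Other gene lists differed within the pairs as well. In the pregnant pair 10 of 10 luminal epithelial markers and 11 of 11 milk genes were lower in the mutant, with median ratios of -0.46 and -0.48. Markers of some other cells stood higher in that mutant: 9 of 9 for B cells (median 0.61) and 8 of 8 for T cells (0.34). So did 10 of 10 for endothelium (0.25), 12 of 12 for skeletal muscle (0.22) and 9 of 10 for fibroblasts (0.20). Lower in it were 7 of 10 adipocyte (-0.29) and 6 of 8 myoepithelial markers (-0.17), while macrophage markers split 5 to 5 (0.04). Most B and T cell signals of this pair were dim. Cd79a read 80.4 in the control and 120 in the mutant, and Cd3e 89.2 and 114.8, in the range of the Y-linked probe sets. Among the B and T cell markers, only Ighm (1005.1 and 1560.9) and Thy1 (595.4 and 882.1) lay above the highest Y-linked value of 483.5. In the virgin pair 9 of 9 B cell markers were higher in the mutant (0.51) and 12 of 12 skeletal muscle markers were lower, 11 of them at least 2-fold, with a median of -1.45. The luminal signals of the pregnant pair summed to 80219 for the control and 59442 for the mutant, and Krt8 went from 9401.8 to 6648. In the lactating pair the luminal median was 0.74 and the sum 64988 for the control and 99831 for the mutant. There 14 of 19 immediate early and stress genes were lower in the mutant, 7 of them at least 2-fold (beside 2.7% of all genes), and 3, Hspa1a, Hspa1b and Egr3, were at least 2-fold higher (beside 3.58%), with a median of -0.45 and a sum of 42373 for the control and 28894 for the mutant. Socs3, one of that list, read 5271.6 in the lactating control and 409.3 in the mutant, and Btg2 and Plk2 were lower in that mutant too. Medians of S phase genes were 0.70 for the pregnant pair, 0.72 for the virgin and 0.33 for the lactating one, and those of mitosis genes 0.11, 1.13 and -0.27. The part of these lists in the ratios of the p53 target genes was not tested.

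**Figure D4:**
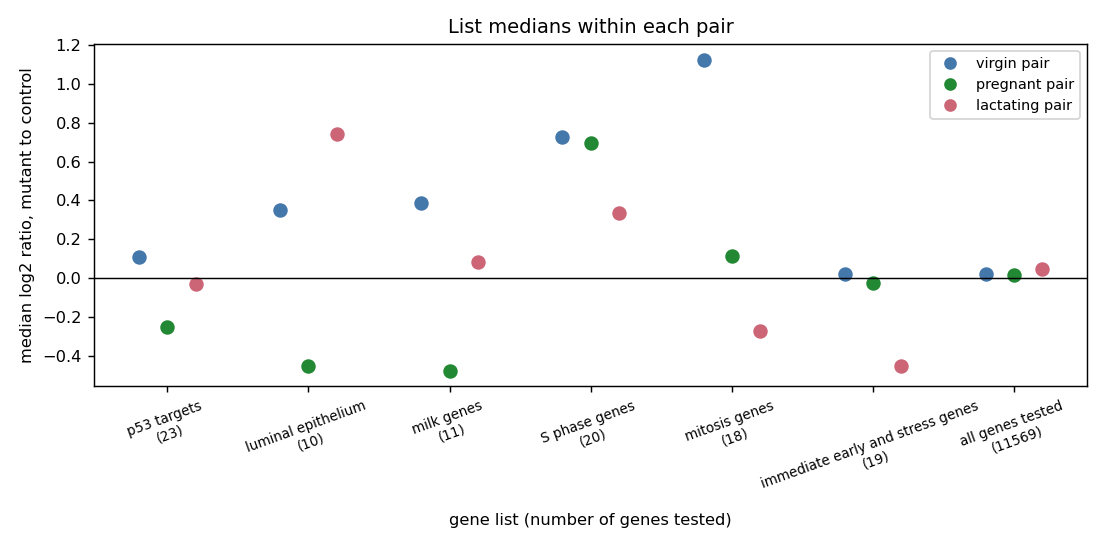
Median log2 ratio of mutant to control (vertical axis) over the tested genes of each list (horizontal axis, with their number), 1 point per pair, virgin in blue, pregnant in green and lactating in red. The p53 targets stand at -0.25 in the pregnant pair, where the luminal and milk lists stand at -0.46 and -0.48, and all genes lie near 0 in each pair.

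The cell make-up of the glands also differed between stages, and in whole tissue fewer cells of a type and less RNA per cell cannot be told apart. From virgin to lactating glands the median ratio was -2.83 over 10 fibroblast markers, -2.51 over 10 adipocyte markers, -2.16 over 8 T cell markers, -1.68 over 10 macrophage markers, -1.30 over 10 endothelial markers and -1.26 over 9 B cell markers. Milk genes had 2.46, 12 skeletal muscle markers 1.725, luminal markers 0.65 and myoepithelial markers 0.68. Summed fibroblast signal was 115478 and 121978 in the virgin glands, 68185 and 77201 in the pregnant and 13429 and 19429 in the lactating ones. Summed T cell signal was 8413 and 9942 in the virgin and 1536 to 2188 in the other 4 glands. Of the 8 T cell markers tested, 6 were called lower in lactating than in virgin glands, among them Cd3d, at 20.1 and 35.7 in the lactating glands. Cd8a was called higher (1.15 ± 0.26, adjusted p = 0.00828) and Cd5 was not called (-0.40 ± 0.30). Of the 10 macrophage markers limma called 7 lower and Cd14 higher (2.28 ± 0.38, adjusted p = 0.00237). Of the 9 B cell markers it called 5 lower and Pax5 higher (1.42 ± 0.31, adjusted p = 0.0074). Summed skeletal muscle signal ranged from 17924 in the virgin mutant to 212044 in the pregnant mutant. These differences stood beside the fall of Fas, Sesn1, Trp53inp1 and the other genes lower at lactation, and their part in it was not tested. Of the 23 genes, 15 had their lowest stage mean at lactation, beside 43.52% of all genes.

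Genes that act on p53 were followed in a list of 34, of which 29 were tested. Between lactating and virgin glands 16 were lower (55.2%) and 3 higher (10.3%), beside 28.2% and 23.8% of all genes, and the median ratio was -0.65. Atr (-1.97 ± 0.24, adjusted p = 0.000705), the kinase that answers stalled replication, Trp53bp1 (-1.73 ± 0.22, adjusted p = 0.000891), which binds p53 and marks DNA breaks, and the acetyltransferase Crebbp (-1.65 ± 0.19, adjusted p = 0.000555) were lower. Mdm4, which blocks p53 as a partner of Mdm2, read 1635.7 (control) and 1851.4 (mutant) in virgin glands and 722.3 and 537.1 at lactation (-1.41 ± 0.22, adjusted p = 0.00172). Ppp1r13l, an inhibitor of p53, was higher (2.07 ± 0.19, adjusted p = 0.000304), as were Rps27l (1.03 ± 0.24, adjusted p = 0.0101) and the kinase Chek2 (0.65 ± 0.23, adjusted p = 0.048). Against pregnant glands 7 were lower (24.1%, beside 16.8% of all genes), with Atr (-1.46), Trp53bp1 (-1.16), Kat8 (-0.93) and Chek1 (-0.92) first, and 1, Ppp1r13l (1.58), was higher (3.45%, beside 15.1%). Crebbp was also the 1 gene of this list called between pregnant and virgin glands (-0.91 ± 0.19, adjusted p = 0.0205), which is 3.45% lower beside 7.98% of all genes. None of the 29 was called between mutant and control, where limma called no gene at all.

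A second list held 58 other p53 targets, of which 44 were tested. Between lactating and virgin glands 16 were lower (36.4%) and 7 higher (15.9%), beside 28.2% and 23.8% of all genes, and the median was -0.37. The matrix protein gene Thbs1 (-2.73 ± 0.32, adjusted p = 0.000634), the autophagy gene Dram1 (-2.49 ± 0.23, adjusted p = 0.000285), the repressor Bcl6 (-2.33 ± 0.26, adjusted p = 0.000505) and the replication clamp Pcna (-2.31 ± 0.23, adjusted p = 0.000363) were lower. The tetraspanin Cd82 (2.58 ± 0.24, adjusted p = 0.000304), Trp53i11 (2.02 ± 0.23), Ndrg1 (1.86 ± 0.28) and the growth factor Tgfa (1.28 ± 0.35) were higher. Against pregnant glands 8 were lower (18.2%) and 6 higher (13.6%), shares near the 16.8% and 15.1% of all genes. The lower ones were led by Psrc1 (-2.11, with lactating signals of 43.4 and 56.8, in the range of the Y-linked probe sets), Pcna (-1.82), Dram1 (-1.63) and Igfbp3 (-1.53), and the higher ones by Trp53i11 (1.13), Bcl2l1 (0.94), Cx3cl1 (0.85) and Cd82 (0.81). Between pregnant and virgin glands 7 were lower (15.9%, beside 7.98%) and 3 higher (6.82%, beside 6.38%), with Bcl6 (-1.93), Cyfip2 (-1.68), Klf4 (-1.43) and Thbs1 (-1.42) first among the lower. Cd82 (1.77), Trp53i11 (0.88) and Sytl1 were the higher ones. Sytl1 read 9 in the virgin control, below the median of the Y-linked probe sets, and 272.2 in the virgin mutant, so its fitted ratio of 2.29 is not a measured fold. In the comparison of the pregnant with the p53+/- glands, neither list had a called gene.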

How the data were processed

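The deposited values are MAS5 signal intensities of 45101 probe sets on 6 arrays, scaled by the authors, per the submitters' processing notes and the values; the MAS5 settings are not given in the sources used here, and no detection calls were used. Probe sets with 1 gene symbol (34945) were kept; 932 had several, 9160 had none and 64 were controls. Each gene took its brightest probe set, log2(signal + 52.1, the 25th percentile) was computed, and 11569 genes with a mean log2 of at least 7.72, the median over all probe sets, were tested with limma 3.58.1 in R 4.3.3: additive stage and genotype, eBayes with a trend, 2 residual degrees of freedom, Benjamini-Hochberg over all genes tested, called under 0.05. With 1 mouse per stage and genotype, p-values rest on the spread left after both terms, and the number of arrays limits the precision. The procedure was tested on simulated data. The genes and lists were chosen with earlier results of these data known. Named pathway genes are the called ones with the largest ratios, up to 4 per direction. Alternatives covered scaling, pseudocount, filter, probe set choice, trend, covariate and left-out arrays. Promoters are RefSeq's. Figures used matplotlib 3.10.9.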

Additional observations from a re-analysis of the deposited data

Results flagged for a closer look

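The mutant to control ratio of 8 genes had 1 sign in the pregnant pair and the opposite sign in both the virgin and the lactating pair, among the 28 with a probe set. Of the 23 tested genes 7 did so (30.4%), beside 25.4% of all genes tested, so the count itself is near the background. Each pair is 1 mutant and 1 control mouse, and the difference was not tested. The pregnant log2 ratio minus the mean of the other 2 was -2.72 for Cdkn1a, -1.42 for Zmat3, -1.30 for Sesn2, -1.03 for Polk, -0.94 for Eda2r, -0.87 for Perp and -0.21 for Phlda3. It was 0.35 for Tigar, the 1 gene higher in the pregnant mutant and lower in both others. Eda2r lay below the brightness filter. Under median centring the sign in the virgin pair turned for Phlda3 (-0.08), and the second probe sets of Polk and Sesn2 did not share the pattern. The pregnant pair also differs from the others in Brca1 alleles, p53 label and stage, which cannot be told apart.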

How the results depend on the processing

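With 6 arrays and 1 pair per stage, calls were sensitive to the processing. Lactating against virgin glands, where 14 of 23 genes were called, 9 of 13 were called with the filter at the 75th percentile, 9 with the mean of probe sets, and 9 to 16 with an array left out. The median ratio of -0.81 became -1.40 with median centring and -0.10 with the mean of probe sets, and ranged from -0.89 to -0.70 with an array left out. Plk2 turned to 0.029 with the mean of probe sets. Pregnant against virgin, with 0 called, 3 were called with median centring, 1 with the pseudocount at the median, 2 without the filter, 3 with the mean of probe sets, 1 without cross-hybridising probe sets, 1 without the genotype term and 0 to 4 with arrays left out. Lactating against pregnant, with 8 called, it was 13 with median centring, 5 with the higher filter and 2 to 8 with arrays left out. Pregnant against the p53+/- glands, with 2 called, it was 0 without the filter, 1 with the mean of probe sets, 1 without cross-hybridising probe sets, 0 without the variance trend and 0 to 5 with arrays left out. Genes lower in the mutant numbered 12 in the virgin pair and 7 in the lactating pair with median centring. For mutant against control, Cdkn1a ranged from -0.50 to 1.09 with arrays or pairs left out, and 0 of the 23 genes were called under any of 19 alternatives. Over all genes, calls ranged from 307 to 2763 for pregnant against virgin, 3456 to 7747 for lactating against virgin, 1086 to 4600 for lactating against pregnant, 26 to 1202 for pregnant against the p53+/- glands and 0 to 2 for mutant against control. Sesn1, Fas and Aen were called in the lactating against virgin comparison under every alternative that tested them. The cause of the changes was not tested.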
